A study of Mus musculus with 12 samples.

Results

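The axon guidance ligands and receptors were chosen by name alone, as every gene symbol of the count table that belongs to the semaphorin, neuropilin, plexin, Slit, Robo, netrin, Unc5, Dcc, ephrin or Eph families. This gave 67 of the 22317 symbols, with 34 ligands and 33 receptors. The ligands were 20 semaphorins, 3 Slits, 3 netrins, 5 A-class ephrins and 3 B-class ephrins. The receptors were 2 neuropilins, 9 plexins, 4 Robo receptors, 5 netrin receptors, 8 A-class Eph receptors and 5 B-class Eph receptors. The rule reads the symbols alone, but it was set with earlier results of these data known.

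Poly(A) RNA of wild-type, young adult male BALB/c mice was sequenced in 12 libraries, in 4 groups of 3 biological replicates, with 14126082 to 18972654 counts in genes per library. Every group had received photothrombosis, in which laser light on the dye Rose Bengal closes the vessels of a small area. The groups SB2 and SB4 are labelled as brain cortex, taken 2 and 4 days after an injury of the skull. The groups BS2 and BS6 are labelled as interparietal bone, taken 2 and 6 days after an injury of the brain. No uninjured library was analysed here, so the 4 injured groups could be compared with each other alone.

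The marker genes of the tissues went against the labels of SB2 and BS2, while SB4 and BS6 held the markers of their labelled tissue. The summed level of 12 neuron markers was 82.8 to 130 CPM (counts scaled to a common library size) in SB2 and 83.9 to 167 CPM in BS6, against 13335 to 14210 CPM in SB4 and 12947 to 13342 CPM in BS2. The 9 osteoblast and osteocyte markers in the table, of 12 listed, summed to 39651 to 45165 CPM in SB2 and 22462 to 83163 CPM in BS6, against 24.5 to 28.2 CPM in SB4 and 25.4 to 37.3 CPM in BS2. The bone gene Ibsp was at 0.0709 to 0.218 CPM in the libraries labelled SB4 and BS2, and the neuronal gene Rbfox3 was at 0.573 to 5.44 CPM in those labelled SB2 and BS6. Therefore, the libraries labelled SB2 and BS6 held mostly bone transcripts and those labelled SB4 and BS2 mostly brain transcripts. The labels are kept below, but the day after injury and this difference in tissue content cannot be told apart within either labelled series. Whether libraries were exchanged between labels was not tested, and if they were, the changes between days given below would be comparisons of other samples than the labels say. In such bulk samples, fewer cells of a type and less RNA per cell cannot be told apart either.

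Axon guidance genes encode secreted or membrane-bound cues and the receptors with which a growing axon reads them. Class 3 semaphorins are secreted and mostly act through neuropilins paired with plexins, whereas the other semaphorins bind plexins directly. Slits act on Robo receptors, and netrins on Dcc and the Unc5 receptors. Ephrins are tethered to the membrane and bind Eph receptor tyrosine kinases, A-class ephrins mainly the A-class receptors and B-class ephrins mainly the B-class receptors. The same genes work outside the nervous system, in blood vessel growth and in the exchange of signals between osteoblasts and osteoclasts.

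The promoters of 4 receptors are shown because these genes lead their family in one kind of library and take a small share of it in the other: Ephb4 and Robo4 where bone transcripts prevailed, Ephb6 and Robo3 where brain transcripts did. Each window holds the 250 bases before and the 50 bases after the transcription start site, 5′ to 3′ on the strand of the gene, as given by RefSeq on GRCm38.p6. Capitals mark matches to GGGCGG, the core of a GC box, on either strand.
Ephb4 (chr5:137349859-137350158, plus strand): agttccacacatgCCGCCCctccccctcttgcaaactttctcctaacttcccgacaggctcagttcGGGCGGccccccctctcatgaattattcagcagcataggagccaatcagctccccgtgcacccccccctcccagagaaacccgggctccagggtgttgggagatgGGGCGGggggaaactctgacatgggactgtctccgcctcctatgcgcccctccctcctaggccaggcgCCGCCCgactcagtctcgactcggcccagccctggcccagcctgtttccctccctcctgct
Ephb6 (chr6:41605261-41605560, plus strand): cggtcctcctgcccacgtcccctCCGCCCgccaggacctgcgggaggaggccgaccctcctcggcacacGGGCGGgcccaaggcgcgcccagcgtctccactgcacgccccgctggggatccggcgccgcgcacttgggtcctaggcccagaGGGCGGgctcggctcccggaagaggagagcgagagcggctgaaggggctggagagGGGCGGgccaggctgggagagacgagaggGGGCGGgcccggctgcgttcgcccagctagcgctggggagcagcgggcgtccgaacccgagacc
Robo4 (chr9:37401722-37402021, plus strand): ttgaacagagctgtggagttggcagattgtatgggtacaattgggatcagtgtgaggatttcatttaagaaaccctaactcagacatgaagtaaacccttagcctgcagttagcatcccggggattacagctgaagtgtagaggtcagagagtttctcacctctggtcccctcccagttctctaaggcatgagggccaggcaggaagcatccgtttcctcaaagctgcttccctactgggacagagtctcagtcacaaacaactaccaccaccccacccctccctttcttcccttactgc
Robo3 (chr9:37433126-37433425, minus strand): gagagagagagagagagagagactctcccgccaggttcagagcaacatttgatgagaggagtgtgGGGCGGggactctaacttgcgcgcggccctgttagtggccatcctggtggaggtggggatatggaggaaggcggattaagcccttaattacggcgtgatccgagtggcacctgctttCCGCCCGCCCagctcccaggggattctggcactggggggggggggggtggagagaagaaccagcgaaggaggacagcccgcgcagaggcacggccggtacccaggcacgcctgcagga
The windows of Ephb4, Ephb6 and Robo3 held 4, 5 and 3 matches, with a GC content of 64.7%, 76.3% and 63.3%. The window of Robo4 held 0 matches and had a GC content of 50.3%. Of the 67 members 57 had a window in the RefSeq table, and 71.9% of these held a GC box core, against 35.7% of all 32851 windows of the same length. The share did not separate the directions described below, being 70.6% both in 17 windows of members called higher in SB4 and lower in BS6 and in 17 windows of members with the reverse calls. A RUNX motif, searched as TGTGGT on both strands, was in 10.5% of the members' windows and 16.8% of all windows. A TATA box, searched on both strands by the letters TATAAA, was in 3.51% of the members' windows and 13.6% of all windows. A single window was taken per member, the nearest to its annotated start, whereas every window of the table was counted among all windows. The median GC content was 65% in the members' windows and 52.7% in all windows. The shares above do not allow for either difference. The matches describe letters and not bound sites.

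To ask how these genes changed between the days, SB4 was compared with SB2 and BS6 with BS2 by edgeR's quasi-likelihood test on the deposited counts. These 2 comparisons share no library. A gene was called where the p-value after Benjamini-Hochberg adjustment was under 0.05 and the log2 fold change was over 1 in either direction, and all 67 members had counts enough to be tested in both. In SB4, 25 members were higher than in SB2 (37.3%, against 27.8% of all genes tested) and 23 were lower (34.3%, against 28.6%). In BS6, 22 members were higher than in BS2 (32.8%, against 29% of all genes) and 24 were lower (35.8%, against 26.5%). A further 15 members in SB4 against SB2 (22.4%, against 26.9% of all genes) and 7 in BS6 against BS2 (10.4%, against 19.5%) passed the adjusted p-value with a smaller fold change, and 4 (5.97%, against 16.7%) and 14 (20.9%, against 25%) did not pass it. In SB4 against SB2, 4 to 8 members did not pass with a library left out, the most without SB4 replicate 3. In BS6 against BS2 the 7 and 14 became 14 and 7 without BS6 replicate 2 and 4 and 18 without BS2 replicate 1. With all 12 libraries in the fit, 8 and 10 members passed with a smaller change and 11 and 10 did not pass. The sizes of the changes were large for both sets of libraries. The median absolute log2 fold change of the members was 2.06 in SB4 against SB2 and 1.97 in BS6 against BS2, and over all genes tested it was 1.25 and 1.26.

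The directions were opposite in the labelled series. Of the members, 22 were higher in SB4 than in SB2 and lower in BS6 than in BS2, 20 were the reverse, and 0 were called in the same direction in both. The share with opposite calls was 62.7% of the members and 49.2% of the 16953 genes tested in both comparisons. Of those genes, 0.0767% were called in the same direction, so that such calls were rare for all genes. The 22 higher in SB4 and lower in BS6 were Sema3e, Sema4f, Sema5b, Sema6b, Sema7a, Plxna2, Plxna4, Plxnb3, Slit1, Robo2, Robo3, Dcc, Unc5a, Unc5d, Efna3, Efnb3, Epha4, Epha5, Epha7, Epha10, Ephb1 and Ephb6. The 20 lower in SB4 and higher in BS6 were Sema3b, Sema3d, Sema3f, Sema3g, Sema4c, Nrp1, Nrp2, Plxnb2, Plxnd1, Slit3, Robo4, Ntn1, Ntn4, Unc5b, Efna1, Efna4, Efnb1, Epha2, Epha3 and Ephb4. When the difference between both changes was tested over all 12 libraries, 30 members had a higher change in SB4 against SB2 (44.8%, against 35.8% of all genes) and 27 a lower one (40.3%, against 37.8%). The summed level of 8 endothelial markers moved in the direction of the 20 members, as the osteoblast and osteocyte markers given above did. It was 900 to 963 CPM in SB2 and 841 to 1094 CPM in BS6 against 169 to 216 CPM in SB4 and 133 to 201 CPM in BS2. Of the 8 endothelial markers, 6 were called lower in SB4 than in SB2 and 6 higher in BS6 than in BS2. The part of these cells in the result was not tested.

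**Figure D1:**
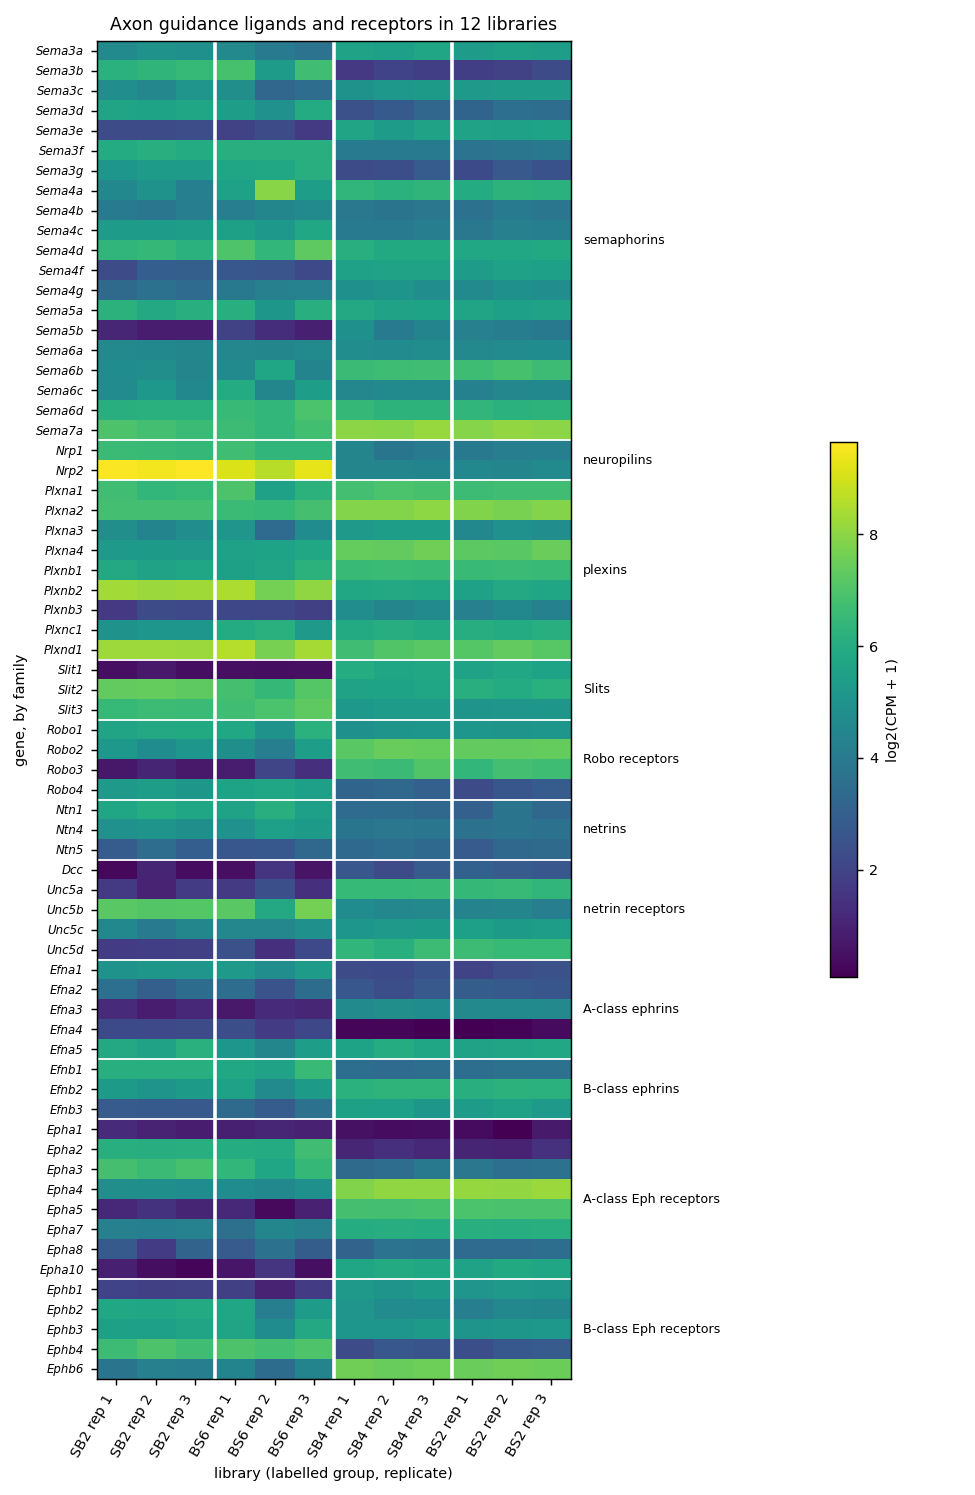
Levels of the 67 members (rows, by family) in the 12 libraries (columns, by labelled group and replicate), as log2(CPM + 1), from dark purple (low) to yellow (high). The columns of SB2 look like those of BS6 and the columns of SB4 like those of BS2, with Nrp2 the brightest row in SB2 (716 to 798 CPM) and BS6 replicate 2 set apart by Sema4a (244 CPM).

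**Figure D2:**
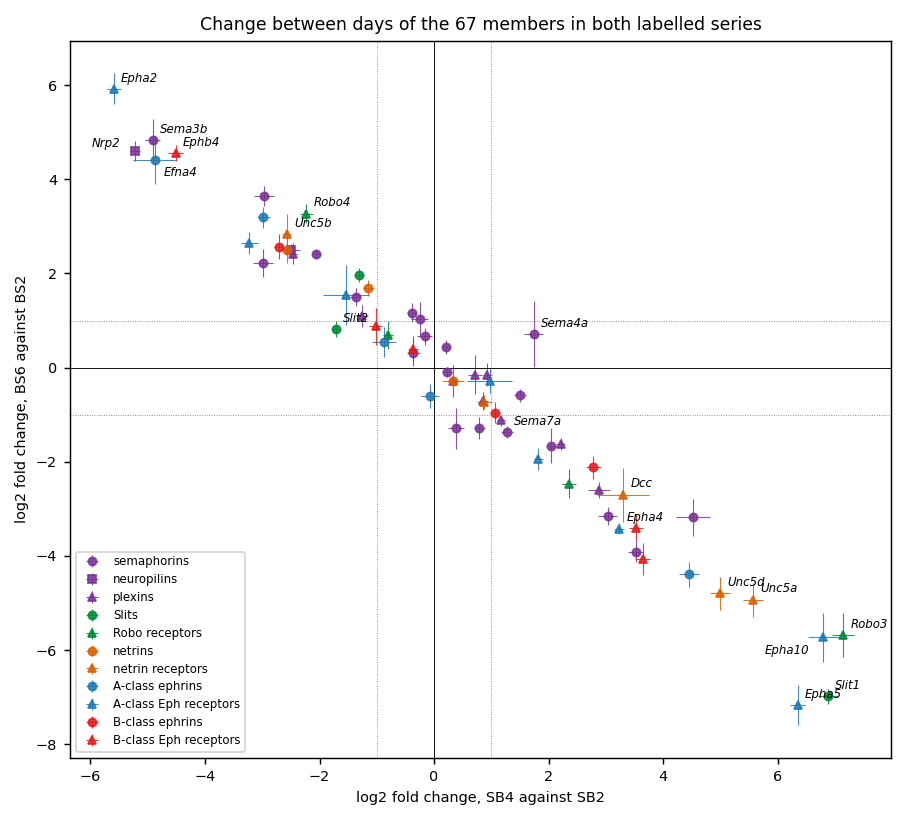
Log2 fold change of each member in SB4 against SB2 (x axis) and in BS6 against BS2 (y axis), with standard errors as bars. Colours mark the signalling system, circles the ligands, triangles the receptors and squares the neuropilins, and dotted lines mark 1 and -1. The 42 members with opposite calls lie in the upper left and lower right, from Epha2 (-5.59 and 5.92) to Slit1 (6.88 and -6.98).

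Among the semaphorin receptors, both neuropilins were lower in SB4 than in SB2 and higher in BS6 than in BS2. Nrp2, which binds class 3 semaphorins and VEGF-C, was at 759, 716 and 798 CPM in the SB2 libraries and at 557, 387 and 618 CPM in the BS6 libraries. It was at 20.4, 20.7 and 19.8 CPM in SB4 and at 22.1, 20.6 and 23.5 CPM in BS2. The groups with bone transcripts were thus far above the other groups without overlap, and the mean was 37.4-fold lower in SB4 than in SB2 (log2 fold change -5.22, SE 0.09, adjusted p = 1.3e-12) and 23.6-fold higher in BS6 than in BS2 (4.60, SE 0.21, adjusted p = 8.37e-06). Nrp1, the partner of plexins for Sema3a and a VEGF-A co-receptor, changed less. Its level was 91.3 ± 5.57 CPM (SD, n = 3) in SB2 and 16.4 ± 3.83 CPM in SB4, which was 5.58-fold lower, and 89.4 ± 11.7 CPM in BS6 against 16.3 ± 1.55 CPM in BS2, which was 5.47-fold higher. Nrp2 therefore took 87.2% of the summed neuropilin level per kilobase of exon in SB2 and 82.4% in BS6, but 51.0% in SB4 and 52.7% in BS2.

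The class 3 semaphorins, the secreted ligands of these receptors, split by member. In SB4 against SB2, 4 of the 7 were lower (Sema3b, Sema3d, Sema3f and Sema3g) and Sema3e was higher, and all 5 took the opposite direction in BS6 against BS2. Sema3b was at 72.1, 79.1 and 87.8 CPM in SB2 and at 2.2, 2.99 and 2.62 CPM in SB4. It was at 2.65, 2.82 and 3.85 CPM in BS2 and at 114, 40.7 and 103 CPM in BS6. Its groups did not overlap, but BS6 replicate 2 held less than the other 2 libraries of its group, and the log2 fold changes were -4.91 (SE 0.13, adjusted p = 2.32e-11) and 4.83 (SE 0.46, adjusted p = 0.00013). Sema3e, which can signal through Plxnd1 without a neuropilin, went the other way, from 3.96 ± 0.0576 CPM in SB2 to 45.4 ± 5.87 CPM in SB4 (11.4-fold higher) and from 47.3 ± 1.03 CPM in BS2 to 3.05 ± 0.862 CPM in BS6 (15.5-fold lower). Sema3a, a repellent of many axons that is also made by bone cells, was called in BS6 alone. It was at 24.3, 29.8 and 28.1 CPM in SB2, at 47.1, 43.7 and 50.5 CPM in SB4, at 39.2, 45 and 42.4 CPM in BS2 and at 23, 15.6 and 12.1 CPM in BS6. The change of Sema3a was 0.79 (SE 0.10, adjusted p = 1.66e-05) in SB4 against SB2 and -1.28 (SE 0.24, adjusted p = 0.00273) in BS6 against BS2. Sema3c was called lower in BS6 than in BS2 (-1.29, SE 0.44, adjusted p = 0.0349), a call that was lost when any of the libraries BS2 replicates 1 to 3 or BS6 replicates 2 and 3 was left out (adjusted p = 0.0706 to 0.0969). Within the class, Sema3b had the highest mean level per kilobase in SB2 and BS6 (33.8% and 32.9% of the class, but 21.5% in BS6 replicate 2, where Sema3f held 33.4%), and Sema3c and Sema3e led in SB4 (26.4% and 26.6%) and BS2 (28.6% and 27.0%).

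Of the membrane-bound semaphorins, Sema7a, a lipid-anchored ligand that binds Plxnc1 and integrins, had the highest mean level per kilobase of all 20 semaphorins in each of the 4 groups. Its libraries held 126, 108 and 94.6 CPM in SB2 and 252, 246 and 290 CPM in SB4. They held 239, 272 and 254 CPM in BS2 and 97.1, 84.7 and 107 CPM in BS6. The groups with brain transcripts were above the others without overlap, by 1.27 (SE 0.11, adjusted p = 1.5e-06) in SB4 against SB2 and by -1.37 (SE 0.12, adjusted p = 7.92e-05) in BS6 against BS2, both on the log2 scale. The share of Sema7a in the summed semaphorin level was 43.3% in SB4 and 43.5% in BS2, against 24.7% in SB2 and 17.7% in BS6. In BS6 replicate 2, however, Sema4a held 27.3% of this level, above the 15.6% to 19.2% of Sema7a in the BS6 libraries. Sema6b was higher in SB4 (100 ± 3.17 CPM, against 24.3 ± 3.11 CPM in SB2) and lower in BS6 (31.9 ± 17.6 CPM, against 104 ± 9.24 CPM in BS2). Sema4f and Sema5b changed likewise, at 3.03 and 4.52 in SB4 against SB2 and at -3.16 and -3.18 in BS6 against BS2 on the log2 scale, and Sema4c changed in the reverse direction (-1.37 and 1.50).

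Sema4d, a semaphorin of immune cells and osteoclasts that binds Plxnb1, did not follow the opposite pattern in full. It was at 82.6, 86.3 and 72 CPM in SB2 and at 66.9, 58.5 and 57.8 CPM in SB4, a change of -0.39 (SE 0.09, adjusted p = 0.00161). With all 12 libraries in the fit this change did not pass (-0.40, adjusted p = 0.0515). Sema4d was at 53.1, 54.6 and 57.6 CPM in BS2 and at 127, 83.2 and 152 CPM in BS6, a change of 1.17 (SE 0.21, adjusted p = 0.00251) that was 0.97 without BS6 replicate 3 and then no longer called. Sema4a, which takes part in signalling to T cells, was higher in SB4 (77.7 ± 5.3 CPM) than in SB2 (23.4 ± 6.26 CPM), by 1.74 (SE 0.17, adjusted p = 2.39e-05). In BS6 it was at 46.2, 244 and 41.2 CPM and in BS2 at 61.1, 75.8 and 71.9 CPM, so that a single BS6 library lay above the BS2 libraries and the others below them (0.71, SE 0.70, adjusted p = 0.386). Without BS6 replicate 2 the direction turned and the change passed (-0.63, adjusted p = 0.00065). Sema4g was higher in SB4 than in SB2 (1.50) and passed the adjusted p-value in BS6 against BS2 with a change of -0.59. Sema6c, of the same class as Sema6b, was called higher in BS6 than in BS2 (1.03, SE 0.37, adjusted p = 0.0406) with overlapping groups, and this call was lost when any library other than BS6 replicate 2 was left out (adjusted p = 0.0783 to 0.123) and with the replicate number as a block (0.91, adjusted p = 0.0806).

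The 9 plexins, the signalling receptors of the semaphorins, were divided between both directions. Plxnd1, a receptor of endothelial cells, and Plxnb2, which binds class 4 semaphorins, were the most abundant plexins per kilobase in SB2 and BS6. Plxnd1 had the highest mean of the plexins in SB4 and BS2 as well. It took 36.4% of the summed plexin level in SB2 and 37.2% in BS6, and 19.2% in SB4 and 23.4% in BS2. Plxnb2 took 35.3% and 31.6% in SB2 and BS6, but 8.08% and 7.88% in SB4 and BS2. Plxnb2 was at 320, 293 and 312 CPM in SB2 and at 55.1, 56.8 and 54.7 CPM in SB4. It was at 46.5, 57.1 and 53 CPM in BS2 and at 350, 199 and 268 CPM in BS6. The groups were apart in both comparisons, with a level 5.55-fold lower in SB4 than in SB2 (-2.47, SE 0.07, adjusted p = 3.31e-11) and 5.22-fold higher in BS6 than in BS2 (2.42, SE 0.22, adjusted p = 0.000111). Plxnd1 fell from 301 ± 6.33 CPM in SB2 to 126 ± 21.1 CPM in SB4 (-1.26, SE 0.11, adjusted p = 1.22e-06) and rose from 146 ± 11.9 CPM in BS2 to 305 ± 92.9 CPM in BS6 (1.10, SE 0.23, adjusted p = 0.00506). The latter was 0.90 without BS6 replicate 1 and then not called. Plxna2, Plxna4 and Plxnb3 were higher in SB4 (1.16, 2.21 and 2.88) and lower in BS6 (-1.12, -1.62 and -2.60). Plxnb1, the Sema4d receptor, stayed under the fold threshold, at 51.5 ± 4.37 CPM in SB2, 93.5 ± 2.99 CPM in SB4, 93.3 ± 1.79 CPM in BS2 and 55.8 ± 15.1 CPM in BS6 (0.86, adjusted p = 7.89e-07, and -0.71, adjusted p = 0.0122). Plxnc1, the Sema7a receptor, was at 32.4 ± 1.93, 61.6 ± 2.28, 63.9 ± 1.98 and 55.9 ± 17.8 CPM in SB2, SB4, BS2 and BS6. Its change passed the adjusted p-value in SB4 against SB2 (0.93, SE 0.08, adjusted p = 4.19e-07) and not in BS6 against BS2 (-0.15, SE 0.25, adjusted p = 0.591).

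Among the Slit ligands and Robo receptors, different members led in the groups with bone and with brain transcripts. Slit1, a Slit of neurons, was at 0.399, 0.666 and 0.366 CPM in SB2 (6 to 10 counts) and at 63.1, 51.3 and 53.9 CPM in SB4. It was at 47.2, 54.4 and 48.2 CPM in BS2 and at 0.391, 0.362 and 0.382 CPM in BS6 (6 counts in each library). The libraries with bone transcripts were thus near the limit of detection, as 3 counts correspond to 0.171 to 0.2 CPM in them. The log2 fold changes of Slit1 were 6.88 (SE 0.18, adjusted p = 2.68e-11) and -6.98 (SE 0.16, adjusted p = 2.75e-06). Slit3 went the other way and was 2.49-fold lower in SB4 than in SB2 (38 ± 2.66 against 94.7 ± 5.07 CPM) and 3.83-fold higher in BS6 than in BS2 (125 ± 24.6 against 32.7 ± 1.1 CPM). Slit2, a repellent of many axons, was at 163, 165 and 153 CPM in SB2, at 46.8, 47.9 and 51.4 CPM in SB4, at 66.5, 61 and 69.8 CPM in BS2 and at 112, 87.3 and 137 CPM in BS6. It was lower in SB4 than in SB2 (-1.71, SE 0.07, adjusted p = 5.89e-10) and passed the adjusted p-value in BS6 against BS2 with a smaller change (0.81, SE 0.17, adjusted p = 0.00447). Slit1 made up 53.6% of the summed Slit level per kilobase in SB4 and 51.3% in BS2, against 0.364% in SB2 and 0.260% in BS6, where Slit3 took 70.9% and 82.1%.

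Robo3, a receptor of axons that cross the midline, was at 0.627, 1.07 and 0.672 CPM in SB2 and at 105, 96.8 and 130 CPM in SB4. It was at 84.1, 110 and 102 CPM in BS2 and at 0.782, 3.2 and 1.59 CPM in BS6. This was the largest rise of a member in SB4 against SB2 (7.14, SE 0.19, adjusted p = 1.21e-10), and in BS6 against BS2 the change was -5.68 (SE 0.47, adjusted p = 7.24e-05). Robo4, an endothelial receptor that stabilises vessels, was at 35.9, 41.8 and 34.4 CPM in SB2 and at 7.94, 8.7 and 7.13 CPM in SB4. It was at 3.83, 5.19 and 6.32 CPM in BS2 and at 49, 50.9 and 43.6 CPM in BS6. Its groups did not overlap in either comparison (-2.23, SE 0.12, adjusted p = 7.14e-09, and 3.27, SE 0.20, adjusted p = 2.31e-05). Both genes lie on chromosome 9, on opposite strands with their 3′ ends 553 bases apart, and they share no annotated exon sequence. Robo2 was higher in SB4 (2.36) and lower in BS6 (-2.47). Robo1, the main Slit receptor of many cell types, was at 54.7 ± 4.52 CPM in SB2, 31.4 ± 2.55 CPM in SB4, 33.1 ± 1.02 CPM in BS2 and 52.2 ± 20.4 CPM in BS6, with changes of -0.80 (SE 0.09, adjusted p = 8.24e-06) and 0.69 (SE 0.29, adjusted p = 0.0647). The latter passed with all 12 libraries in the fit (adjusted p = 0.0147) and without BS6 replicate 2 (0.96, adjusted p = 6.73e-05). Per kilobase, Robo4 took 57.2% of the Robo level in SB2 and 64.3% in BS6, and Robo3 took 55.6% in SB4 and 53.3% in BS2.

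**Figure D3:**
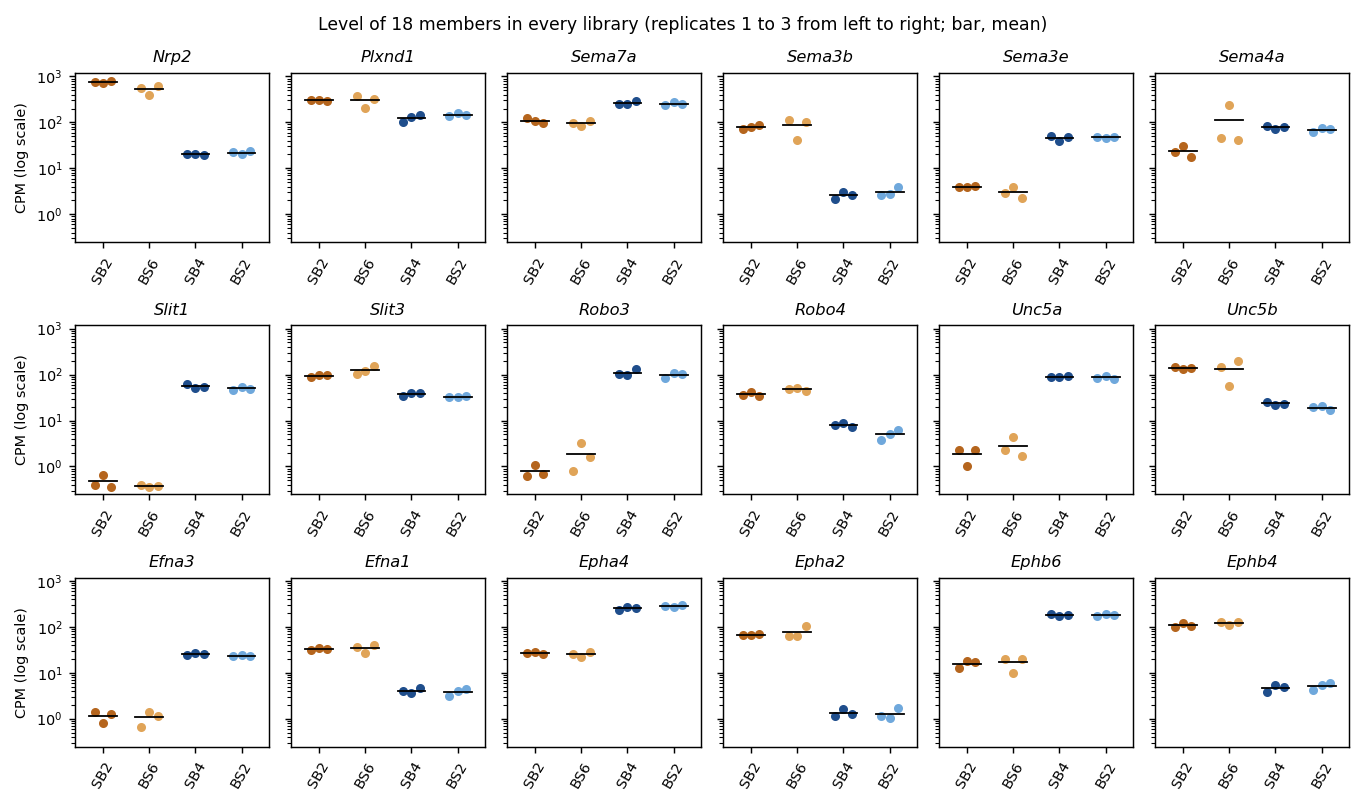
Level of selected ligands and receptors in every library, in CPM on a log scale. Points are replicates 1 to 3 from left to right within each labelled group, black bars are means, brown points are SB2 and BS6 and blue points SB4 and BS2. Slit1 stays under 1 CPM in SB2 and BS6 and lies between 47.2 and 63.1 CPM in SB4 and BS2, while Ephb4 lies between 99.6 and 127 CPM and between 3.83 and 6.1 CPM.

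Among the netrins, Ntn1 was the cue that changed most. Ntn1, the founding netrin and a ligand of Dcc and the Unc5 receptors, was at 52.6, 63.2 and 52 CPM in SB2 and at 9.79, 9.89 and 8.69 CPM in SB4. It was at 7.14, 12.7 and 9.01 CPM in BS2 and at 46.9, 67.9 and 43.8 CPM in BS6. The groups did not overlap, and the changes were -2.56 (SE 0.11, adjusted p = 1.22e-09) and 2.50 (SE 0.28, adjusted p = 0.000267). Ntn4, a netrin of basement membranes, changed in the same directions (-1.15 and 1.68). Ntn5 passed in neither comparison, at 7.75 ± 2.19, 9.68 ± 0.706, 8.18 ± 1.79 and 6.56 ± 1.98 CPM in SB2, SB4, BS2 and BS6. Without SB2 replicate 2 its change in SB4 against SB2 went from 0.33 (adjusted p = 0.132) to 0.58 (adjusted p = 0.00597). It shares 23.4% of its exon bases with Sec1, and since the use of strand in counting is not stated, part of its counts may belong to that gene.

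The netrin receptors exchanged places. Unc5b, which is expressed by endothelial cells, was at 144, 135 and 138 CPM in SB2 and at 25.7, 21.8 and 23.1 CPM in SB4. It was at 19.6, 20.3 and 17.2 CPM in BS2 and at 144, 56.3 and 197 CPM in BS6. The groups were apart although the BS6 libraries differed among themselves, and the changes were -2.57 (SE 0.08, adjusted p = 8.82e-11) and 2.83 (SE 0.44, adjusted p = 0.00128). Unc5a, a receptor of neurons, rose from 1.87 ± 0.751 CPM in SB2 to 90.2 ± 2.74 CPM in SB4 and was at 86.5 ± 6.01 CPM in BS2 and 2.74 ± 1.38 CPM in BS6, which was 48.4-fold higher and 31.6-fold lower. Unc5d changed likewise, 31.7-fold and 28.4-fold. Unc5b took 92.6% of the summed netrin receptor level in SB2 and 87.6% in BS6, whereas Unc5a took 59.3% in SB4 and 57.2% in BS2. Dcc, the receptor through which netrin attracts axons, was low throughout. It was at 0.228, 1.07 and 0.305 CPM in SB2 (4 to 16 counts), at 5.46, 3.75 and 6.24 CPM in SB4, at 7.31, 6.08 and 5.45 CPM in BS2 and at 0.391, 1.87 and 0.509 CPM in BS6, with changes of 3.30 (SE 0.45, adjusted p = 5.54e-05) and -2.70 (SE 0.57, adjusted p = 0.00466).

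The A-class ephrins and their receptors held the member with the largest fall. Epha2, a receptor of epithelia, vessels and bone cells, was at 65.8, 64.9 and 68.6 CPM in SB2 and at 1.13, 1.63 and 1.28 CPM in SB4. It was at 1.12, 1.02 and 1.74 CPM in BS2 and at 63.3, 61.9 and 105 CPM in BS6. The mean was 49.2-fold lower in SB4 than in SB2 (-5.59, SE 0.12, adjusted p = 6.95e-12) and 59.1-fold higher in BS6 than in BS2 (5.92, SE 0.33, adjusted p = 1.7e-05). Epha3 changed in the same directions (-3.23 and 2.64). Epha4, a receptor of neurons and glia that also binds B-class ephrins, went the other way. It was at 27.1, 27.8 and 25.8 CPM in SB2, at 227, 266 and 262 CPM in SB4, at 278, 269 and 296 CPM in BS2 and at 25.8, 22.5 and 28.3 CPM in BS6, with changes of 3.23 (SE 0.08, adjusted p = 1.73e-11) and -3.42 (SE 0.12, adjusted p = 4.31e-06). Epha5, a receptor of cortical and hippocampal neurons, was at 1.25, 1.8 and 1.1 CPM in SB2 and at 113, 109 and 114 CPM in SB4. It was at 122, 118 and 118 CPM in BS2 and at 1.24, 0.242 and 0.955 CPM in BS6 (4 to 19 counts). Epha5 had the largest fall of a member in BS6 against BS2 (-7.17, SE 0.42, adjusted p = 2.02e-05). Epha10, a receptor without kinase activity, was at 0.476 ± 0.385, 54.9 ± 4.36, 52.6 ± 5.11 and 0.947 ± 0.808 CPM in SB2, SB4, BS2 and BS6 (6.79, SE 0.26, and -5.73, SE 0.52), and Epha7 rose and fell less (1.82 and -1.94). The low means of Epha10 rested on single libraries, at 0.911, 0.333 and 0.183 CPM in SB2 and 0.587, 1.87 and 0.382 CPM in BS6. Without BS6 replicate 2 the BS6 mean of Epha10 was 0.484 CPM. Epha1, at 13 to 24 counts in SB2 and 6 counts in each SB4 library, was lower in SB4 (-1.54, SE 0.40, adjusted p = 0.00385), and in BS6 against BS2 it did not pass (1.54, SE 0.63, adjusted p = 0.0611). There it was called with all 12 libraries in the fit (1.54, adjusted p = 0.019) and without BS2 replicate 3 (2.43, adjusted p = 0.0175). Epha2 led the A-class receptors per kilobase in SB2 (42.7%) and BS6 (50.8%), and Epha4 in SB4 (55.8%) and BS2 (58.2%).

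Of their ligands, Efna1 was 7.93-fold lower in SB4 (4.1 ± 0.476 CPM) than in SB2 (32.5 ± 1.9 CPM) and 8.88-fold higher in BS6 (34.3 ± 7.29 CPM) than in BS2 (3.86 ± 0.669 CPM). Efna3 went the other way, 22.1-fold higher in SB4 (25.4 ± 1.5 against 1.15 ± 0.306 CPM) and 21.8-fold lower in BS6 (1.06 ± 0.376 against 23.2 ± 0.541 CPM). Efna1, Efna3 and Efna4 are neighbours on chromosome 3, with 32.8 kb between Efna1 and Efna3 and 10.4 kb between Efna3 and Efna4, so that genes of opposite direction lie side by side. Efna4 was at 53 to 65 counts in the SB2 libraries and at 1 to 3 counts in SB4. Taking SB4 at 0.213 CPM, which is 3 counts in its replicate 1, gave a 17.5-fold lower level, against 31.1-fold from the observed means. Neither value covers the counting error of the observed counts. Efna4 had 1 to 4 counts in BS2 and 38 to 64 in BS6 and was called higher there. Of the exon bases of Efna3 14.1%, of Plxna1 10.7%, of Efna4 10.5%, of Sema4c 7.27% and of Epha1 6.01% are shared with a gene of another name, from which unstranded counting would not tell them apart. Efna5, a ligand that maps visual axons, passed in neither comparison and was at 57.8 ± 11.2, 55 ± 7.83, 50.3 ± 3.95 and 32.5 ± 10.9 CPM in SB2, SB4, BS2 and BS6 (-0.07, SE 0.15, adjusted p = 0.691, and -0.60, SE 0.25, adjusted p = 0.0656). In BS6 against BS2 it did pass with total counts (adjusted p = 0.0381), the replicate block (0.0423) or all 12 libraries in the fit (0.0281), and without BS6 replicate 2 (-0.36, adjusted p = 0.0225) or replicate 3 (-0.83, adjusted p = 0.0185).

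In the B-class system, the receptors Ephb4 and Ephb6 changed in opposite directions. Ephb4, the receptor of veins and osteoblasts, was at 99.6, 123 and 104 CPM in SB2 and at 3.83, 5.38 and 4.9 CPM in SB4. It was at 4.13, 5.51 and 6.1 CPM in BS2 and at 124, 109 and 127 CPM in BS6. The BS6 libraries were close to those of SB2, and Ephb4 was 23.1-fold lower in SB4 than in SB2 (-4.51, SE 0.13, adjusted p = 4.35e-11) and 22.9-fold higher in BS6 than in BS2 (4.56, SE 0.17, adjusted p = 4.91e-06). Ephb6, which lacks kinase activity, was at 12.4, 17.8 and 17.1 CPM in SB2, at 189, 171 and 182 CPM in SB4, at 173, 191 and 180 CPM in BS2 and at 20, 10.1 and 20.2 CPM in BS6. It was 11.4-fold higher in SB4 (3.52, SE 0.12, adjusted p = 1.12e-09) and 10.8-fold lower in BS6 (-3.40, SE 0.28, adjusted p = 6.91e-05). Ephb1 changed like Ephb6 (3.64 and -4.06). Ephb2 was lower in SB4 than in SB2 (-1.02, SE 0.11, adjusted p = 4.26e-06), close to the fold threshold, and was not called without SB2 replicate 3 (-0.97), SB4 replicate 2 (-0.92) or SB4 replicate 3 (-0.95). In BS6 against BS2 it did not pass (0.88, SE 0.39, adjusted p = 0.0784) but was called without BS6 replicate 2 (1.22). Ephb4 took 59.5% and 65.6% of the summed B-class receptor level per kilobase in SB2 and BS6, and Ephb6 took 77.9% and 79.1% in SB4 and BS2. The promoters of both are among those printed above, and each holds several GC box cores.

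Efnb2, the ligand of arteries that binds Ephb4 and passes signals between osteoclasts and osteoblasts, went against Ephb4 with a small change. It was at 38.3, 32 and 38.5 CPM in SB2 and at 72, 77 and 77.9 CPM in SB4, 2.08-fold higher (1.06, SE 0.09, adjusted p = 4.06e-07). It was at 68.8, 74.3 and 72.6 CPM in BS2 and at 45.6, 24.3 and 38.1 CPM in BS6, a change of -0.96 (SE 0.22, adjusted p = 0.00688) that lay under the fold threshold. It was called there with the replicate number as a block (adjusted p = 0.0127) and without BS2 replicate 1 (-1.01) or BS6 replicate 1 (-1.16). The call in SB4 was lost without SB2 replicate 2 (0.98). Efnb1, a ligand needed for skull suture formation, fell from 67 ± 0.644 CPM in SB2 to 10.2 ± 0.546 CPM in SB4 and was 5.80-fold higher in BS6 than in BS2. Efnb3, a midline cue, changed in reverse (2.78 and -2.12). Efnb1 took 73.1% and 69.4% of the B-class ephrin level in SB2 and BS6 and Efnb3 47.5% and 47.9% in SB4 and BS2.

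**Figure D4:**
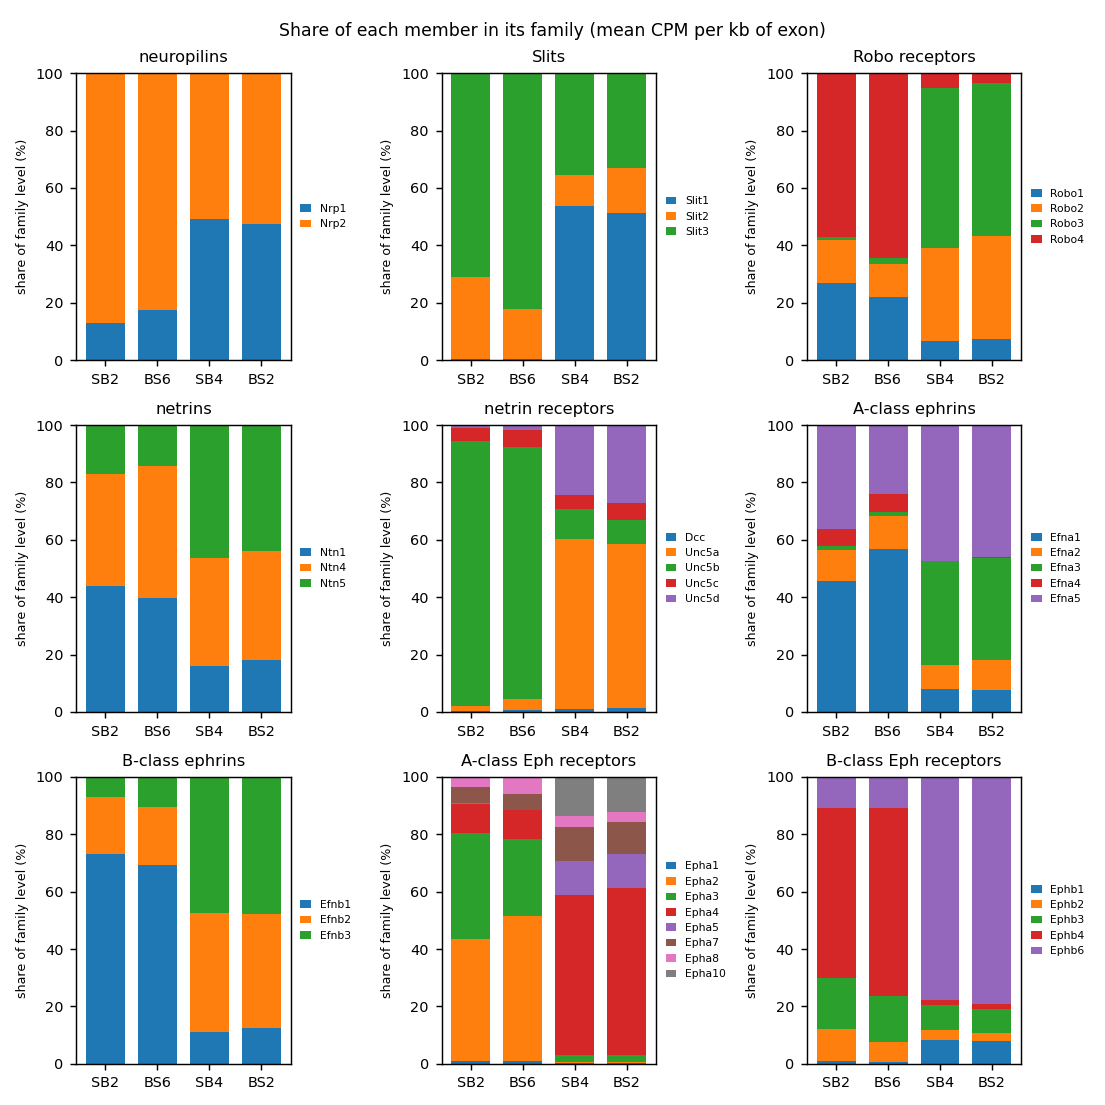
Share of each member in the summed level of its family, in percent of the mean CPM per kilobase of merged exons, in the 4 labelled groups. The bars of SB2 and BS6 resemble each other and so do those of SB4 and BS2, for example with Unc5b at 92.6% and 87.6% of the netrin receptors in the first pair and at 10.3% and 8.37% in the second.

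Added over all 67 members, the mean level per kilobase of each group lay within the range of the BS6 libraries, although its makeup differed. The sum was 538 ± 2.33 CPM per kilobase in SB2, 542 ± 18.3 in SB4, 529 ± 21.9 in BS2 and 545 ± 73.3 in BS6. The families divided it in different ways. The neuropilins summed to 73.3 ± 3.14 CPM per kilobase in SB2 and 53.1 ± 10.5 in BS6, but to 3.38 ± 0.384 in SB4 and 3.53 ± 0.209 in BS2. The Robo receptors were at 12.3 ± 0.588 and 14.1 ± 1.16 against 28.9 ± 2.73 and 27 ± 2.02 in the same order, and the class 3 semaphorins at 49.2 ± 3 and 52.6 ± 11.2 against 18.4 ± 1.42 and 18.9 ± 1.08. The B-class ephrins were at 26.6 ± 0.669, 26.9 ± 8.46, 26.7 ± 1.43 and 26.4 ± 1.84 in SB2, BS6, SB4 and BS2. The members with the highest mean per kilobase in SB2 were Nrp2 (64 ± 3.46), Plxnd1 (41.2 ± 0.866) and Plxnb2 (39.9 ± 1.75), of which Plxnd1 and Plxnb2 overlapped. The order of the means was the same in BS6, but there each of the 3 overlapped with the next. In SB4 the order was Sema7a (79.7 ± 7.27), Ephb6 (47.8 ± 2.4) and Epha4 (31.2 ± 2.69) and in BS2 again Sema7a, Ephb6 and Epha4, without overlap between neighbours in either group.

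A set of 15 members was called in neither change between days although the mean of 1 group or more reached 5 CPM. These were Sema4b, Sema5a, Sema6a, Sema6d, Plxna1, Plxna3, Plxnb1, Plxnc1, Robo1, Ntn5, Unc5c, Efna2, Efna5, Epha8 and Ephb3. Of these, 12 passed the adjusted p-value with a smaller change in SB4 against SB2 and 4 did so in BS6 against BS2. The latter count was 10 without BS6 replicate 2 and 2 without BS2 replicate 1. With all 12 libraries in the fit the counts were 7 and 6, and Plxna1, Sema5a, Sema6d, Plxna3 and Ephb3 lost their pass in SB4 against SB2 (adjusted p = 0.0676 to 0.3). The pass of Sema6d in BS6 against BS2 (adjusted p = 0.0344) was lost in 5 alternatives (0.051 to 0.13). The pass of Sema6a in SB4 against SB2 (adjusted p = 0.032) was lost in 9 alternatives (adjusted p = 0.051 to 0.319) and that of Epha8 (0.0493) in 7 (0.0644 to 0.132), while Epha8 was called without SB2 replicate 3 (1.32) or SB4 replicate 1 (1.15). Sema6a, a ligand of plexins of class A, was nearly level, at 22.1 ± 0.995 CPM in SB2, 25.8 ± 0.8 CPM in SB4, 24.5 ± 1.27 CPM in BS2 and 22.2 ± 1.57 CPM in BS6. Sema6d was at 69.2 ± 0.464, 79.8 ± 5.95, 76.1 ± 5.69 and 100 ± 18.9 CPM in the same order, Plxna1 at 91.9 ± 10.7, 115 ± 5.42, 102 ± 3.85 and 81.5 ± 41 CPM and Ephb3 at 45.7 ± 2.98, 35.2 ± 2.73, 33.9 ± 1.82 and 43.7 ± 16.4 CPM.  Their log2 fold changes in SB4 against SB2 ranged from -0.88 (Efna2) to 0.97 (Epha8), and in BS6 against BS2 from -0.73 (Unc5c) to 0.69 (Robo1).

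To see whether the libraries with like transcripts differed, BS6 was compared with SB2 and BS2 with SB4. These comparisons use the same libraries as those above, and in each of them the injured site, the day and the labelled tissue differ together. For markers of other cells, the median log2 fold change in BS6 against SB2 was 3.05 for 6 neutrophil lineage markers and -2.82 for 5 skeletal muscle markers. It was 1.29 for 4 T cell markers and 1.04 for 6 B cell markers, and 0 of all these markers were called. The neutrophil lineage markers summed to 1408, 24343 and 3313 CPM in BS6 and to 848 to 1516 CPM in SB2, with overlap. The BS6 libraries held 69.4, 106 and 567 CPM of the muscle markers, which overlapped with SB2 too. Of the neuron markers 1 was called lower in BS6. In BS2 against SB4, the 1 neutrophil lineage marker tested was called lower (-2.04), and 2 of 8 astrocyte markers and 1 of 12 neuron markers passed the adjusted p-value with a smaller change. SB2 replicate 3 held 287 CPM of the muscle markers, against 1931 and 2474 CPM. The part of these cells in the members' values was not tested. In BS6 against SB2, 0 of 64 members tested were called, against 1.11% of all genes higher and 0.741% lower, and in BS2 against SB4 0 of 65 were called, against 0.0614% higher and 0.086% lower. The members below the filter were Slit1, Dcc and Epha10 in the first and Efna4 and Epha1 in the second. At an unadjusted p under 0.05 there were 16 members (25%, against 29.2% of all genes) in BS6 against SB2 and 10 (15.4%, against 11.9%) in BS2 against SB4. With DESeq2, 1 member (Sema4a) and 0 members were called. The median absolute log2 fold change was 0.22 and 0.12 for the members and 0.31 and 0.10 for all genes, with a median standard error of 0.25 and 0.09 for the members.

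Single members stood out in these comparisons by their size or their p-value. Sema4g, a semaphorin with a membrane anchor, was at 9.4, 11.4 and 9.83 CPM in SB2 and at 14.4, 17.8 and 18.9 CPM in BS6, without overlap, and passed the adjusted p-value with a change of 0.76 (SE 0.16, adjusted p = 0.0486). It did not pass with the replicate number as a block (adjusted p = 0.113), with total counts (0.0598), without a filter (0.0578) or when any library other than BS6 replicate 2 was left out (0.0615 to 0.21). Plxna3, a plexin of class A that pairs with Nrp2, was at 35.9, 41.8 and 41.9 CPM in SB4 and at 22.2, 28.9 and 26.1 CPM in BS2, which was 1.55-fold lower (-0.62, SE 0.09, adjusted p = 0.0011). Slit2 was higher in BS2 than in SB4 by 0.45 (SE 0.07, adjusted p = 0.00158), with the libraries given above and no overlap. With all 12 libraries in the fit neither passed (adjusted p = 1 for Plxna3 and 0.854 for Slit2). Robo4, at 7.13 to 8.7 CPM in SB4 and 3.83 to 6.32 CPM in BS2, differed by -0.63 (SE 0.18) and did not pass (adjusted p = 0.108). Nrp2 and Epha3 were lower in BS6 than in SB2 by values that did not pass (-0.53, SE 0.19, adjusted p = 0.137, and -0.54, SE 0.21, adjusted p = 0.151), and Ephb4 differed by 0.16 (SE 0.12, adjusted p = 0.404).

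**Figure D5:**
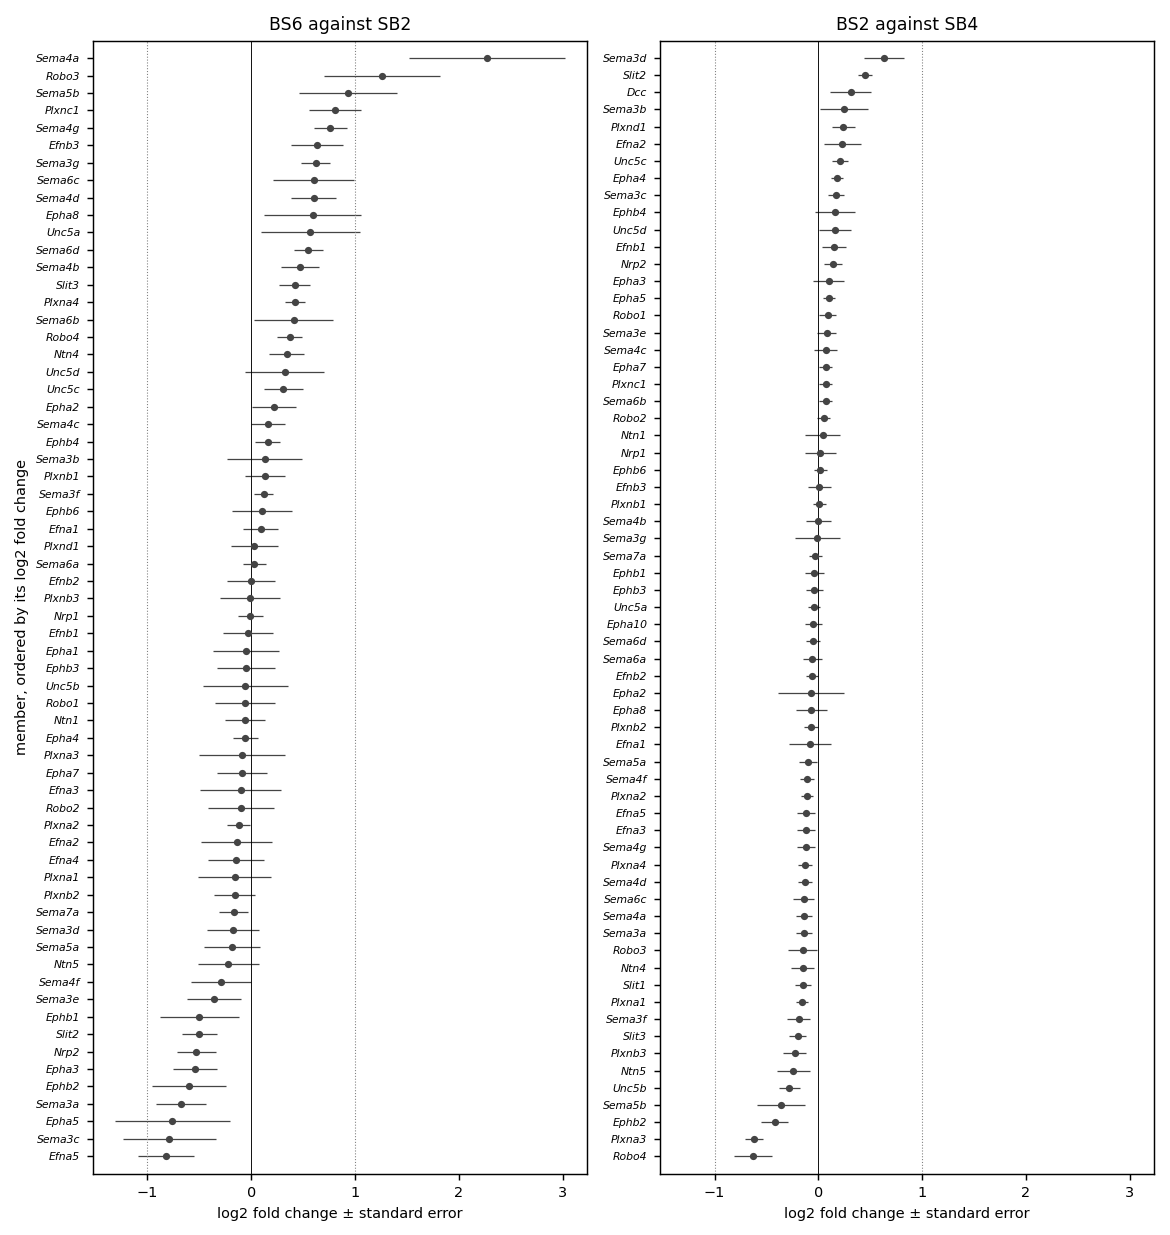
Log2 fold change of each tested member with its standard error (x axis) between the groups with like transcripts, BS6 against SB2 (left) and BS2 against SB4 (right), with members in order of their change and dotted lines at 1 and -1. In the left panel 62 of 64 members lie between the dotted lines, with Sema4a (2.27) and Robo3 (1.26) outside, and in the right panel all 65 do.

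BS6 replicate 2 stood apart in several members. Sema4a was at 244 CPM there and at 46.2 and 41.2 CPM in replicates 1 and 3, 5.57 times their mean, and its change in BS6 against SB2 was 2.27 (SE 0.75, adjusted p = 0.115) with this library and 0.91 (adjusted p = 0.0324) without it. Sema6b was likewise high in it (52.2 CPM, against 23.5 and 20.2 CPM). Unc5b (56.3 CPM, against 144 and 197 CPM), Plxna1 (45.5 CPM, against 126 and 72.9 CPM) and Ephb2 (17.2 CPM, against 52 and 39.6 CPM) were low in it. The same library held 24343 CPM of 6 neutrophil lineage markers, against 1408 and 3313 CPM, and 22462 CPM of the osteoblast and osteocyte markers, against 57865 and 83163 CPM. It also held 167 CPM of the neuron markers, against 83.9 and 89.6 CPM, and 302 CPM of 8 oligodendrocyte markers, against 136 and 123 CPM. Of the 22 members higher in SB4 and lower in BS6, 10 were above the mean of the other BS6 libraries in it (up to 4.16 times, Dcc) and 12 below (down to 0.22 times, Epha5). Of the 20 with the reverse calls, 4 were above and 16 below (median 0.695 times). Of all 67 members, 20 were above and 47 below (median 0.817 times), and the calls that define both sets used this library. The part of these cells in the values of the members was not tested. Without this library 46 of 67 members (23 higher and 23 lower) and 9908 of the 17686 genes tested were called in BS6 against BS2. In BS6 against SB2, 0 members were called without it. With all libraries kept, 1.11% of all genes were called higher there and 0.741% lower.

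Other genes of the pathway were read from the same tests, from a list of 20 further ligands and co-receptors and a list of 36 genes that carry the signal inside the cell. Of the former, 12 were higher in SB4 than in SB2 (60%, against 27.8% of all genes tested) and 3 lower (15%, against 28.6%). In BS6 against BS2, 3 were higher (15%, against 29%) and 12 lower (60%, against 26.5%). Their medians were 2.30 and -2.06 on the log2 scale. The netrin-G ligand receptor Lrrc4c rose from 0.309 CPM in SB2 to 161 CPM in SB4 and was at 172 CPM in BS2 and 0.733 CPM in BS6. The adhesion molecule Nrcam, a partner of neuropilins, was at 17.9, 463, 469 and 24.5 CPM in SB2, SB4, BS2 and BS6. Neo1, a netrin receptor related to Dcc, went the other way, at 319 ± 22, 120 ± 7.83, 119 ± 9.02 and 281 ± 70.6 CPM, and so did Gpc1, a proteoglycan that binds Slits, at 430, 63.9, 55.4 and 362 CPM. Between like libraries, 1 of the 18 tested was called lower in BS6 than in SB2 (5.56%, against 0.741% of all genes). In that comparison 0 were called higher (against 1.11%), and in BS2 against SB4 0 of 19 were called (against 0.0614% higher and 0.086% lower). The single call was Chl1, a cell adhesion molecule that works with neuropilins, which was lower in BS6 (3.30 CPM) than in SB2 (12.9 CPM) by -1.95 (adjusted p = 0.0254).

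Of the 36 intracellular genes, 16 were higher in SB4 than in SB2 (44.4%, against 27.8% of all genes tested) and 8 lower (22.2%, against 28.6%). In BS6 against BS2, 8 were higher (22.2%, against 29%) and 14 lower (38.9%, against 26.5%). Between the groups with like transcripts 0 of them were called. Of all genes tested, 1.11% were called higher and 0.741% lower in BS6 against SB2, and 0.0614% and 0.086% in BS2 against SB4. The collapsin response mediator Crmp1, which relays Sema3a signals, was at 2.05, 155, 166 and 4.26 CPM in SB2, SB4, BS2 and BS6. Dpysl3 of the same family as Crmp1 was at 377, 47.7, 52.3 and 207 CPM, and the kinase gene Fes, which acts downstream of plexins of class A, at 89.5, 4.38, 3.82 and 181 CPM. The BS6 libraries differed among themselves in these genes, from 109 to 323 CPM for Fes, 103 to 266 CPM for Dpysl3 and 2.16 to 8.27 CPM for Crmp1. The small GTPase gene Rac1 had group means of 249 to 323 CPM and passed the adjusted p-value with changes of -0.31 and 0.37.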

How the data were processed

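The authors deposited a table of counts per gene symbol for the 12 libraries. Per the study's methods and the labels, reads were trimmed with fastp and aligned to mm10 with HISAT2 2.1.0. The counting tool, its annotation, its use of strand and whether the counts precede the ComBat_seq adjustment named in the methods are not given in the sources used here. The columns were assigned to samples by name, and 0 columns belonged to no sample. The members and the gene lists were chosen with earlier results of these data known.

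Counts were tested with edgeR 4.0.16 (R 4.3.3, quasi-likelihood test, robust, TMM scaling, filterByExpr with a minimum count of 10), and p-values were adjusted over all genes tested. Each pair of groups was fitted alone, and the difference of both changes over all 12 libraries. CPM used TMM over the 12 libraries, and levels per kilobase used merged exons of GENCODE M21 (GRCm38), in which all 67 members were found. A value of SD covers the 3 libraries of a group. The SE of a log2 fold change was derived from the F statistic of the test. The SE and the p-value set a difference between groups against the spread between libraries, which the test estimates partly from all genes. For a group with 3 counts or fewer in every library, the fold between days was also taken with 3 counts as its level. This does not cover the counting error of the observed counts. The procedure was tested on simulated counts in which 200 of 17293 genes were changed. Of the smaller changes 83% were recovered by the adjusted p-value, and of the larger ones 92%. In SB4 against SB2, 4799 genes were called higher and 4949 lower, so the simulation did not test the scaling under changes in so many genes. Alternatives were DESeq2 1.42.0, other scalings, filters and thresholds, the replicate number as a block, and each library left out in turn.

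Named were 21 members with known roles, the 3 largest and the 3 smallest changes among called members of each comparison with at least 5 CPM and no overlap, members called in the same direction in both changes, and members with at least 5 CPM called in neither. Other genes named as examples were chosen after their values were seen. Promoters are RefSeq windows of GRCm38.p6.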

Additional observations from a re-analysis of the deposited data

Results flagged for a closer look

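The change between days differed between the labelled series for 57 members, when the difference itself was tested with edgeR over the 12 libraries. It was higher in SB4 against SB2 than in BS6 against BS2 for 30 members (44.8%, against 35.8% of all genes tested) and lower for 27 (40.3%, against 37.8%). The largest positive differences of log2 fold changes were those of Slit1 (13.84, SE 0.27, adjusted p = 4.42e-12), Epha5 (13.51, SE 0.41, adjusted p = 8.47e-11) and Robo3 (12.80, SE 0.53, adjusted p = 1.16e-09). The largest negative ones were those of Epha2 (-11.54, SE 0.37, adjusted p = 9.9e-11), Nrp2 (-9.83, SE 0.23, adjusted p = 1.33e-11) and Sema3b (-9.76, SE 0.52, adjusted p = 9.38e-09). The 3 libraries of each group showed the direction of all 6 without overlap. A change between days shared by both series cancels in these differences. What is left sets SB4 and BS2, with brain transcripts, against SB2 and BS6, with bone transcripts. A change between days that differed between the series cannot be told apart from this difference in tissue content.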

How the results depend on the processing

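The count of members called was 43 to 63 in SB4 against SB2 (48 in the report) and 41 to 53 in BS6 against BS2 (46) over the alternatives that kept all libraries, and 47 to 49 and 43 to 46 with each library left out in turn. For the difference of both changes it was 51 to 60 and 55 to 59 (57). In BS6 against SB2 the count was 1 with DESeq2 (Sema4a), 1 with all 12 libraries in the fit (Sema4a) and 1 by the adjusted p alone (Sema4g), each higher. In BS2 against SB4 it was 2 by the adjusted p alone, 1 higher and 1 lower. With each library left out, both counts stayed at 0. Among the members named by rule, the direction of a change between days turned for 4 that were not called. Sema4a, which is not among the members named by rule, was at 0.71 in BS6 against BS2 and at -0.63 without BS6 replicate 2. In BS6 against SB2, another scaling or DESeq2 turned the sign of Sema6a, Plxnd1 and Efnb2, all within -0.07 to 0.04. Plxna1 in BS6 against BS2 was 0.01 without BS6 replicate 2 (range -0.74 to 0.01 over the libraries left out) and Plxna3 was 0.22 (-0.50 to 0.22). Plxnc1 in BS6 against BS2 was 0.09 without BS6 replicate 3 (-0.35 to 0.09). Efna5 in SB4 against SB2 was 0.09 without SB2 replicate 3 and 0.02 without SB4 replicate 1 (-0.19 to 0.09). The cause was not tested. Upper-quartile scaling and total counts moved the median of all genes in SB4 against SB2 to -0.14 and -0.11. Calls near the fold threshold (Efnb2, Ephb2, Efna2, Epha8) changed with scaling or single libraries. Members with a mean under 1 CPM in some group (Slit1, Dcc, Epha10, Efna4, Epha1, Robo3, Epha5, Sema5b) are limited by depth there, and so is the size of their changes.

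With the replicate number as a block, 48 members were called in SB4 against SB2, 46 in BS6 against BS2 (21 higher and 25 lower), 56 for the difference, and 0 in both comparisons of like libraries. The block ended the call of Sema6c and made that of Efnb2 in BS6 against BS2. Deviations of libraries of the same number correlated at -0.0912 to 0.0624, and not every library correlated best with its own number, so the numbers were not taken as pairs.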
